A study of Mus musculus with 7 samples.

Results

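Mitochondrial oxidation of fatty acids and the tricarboxylic acid (TCA) cycle were followed through 33 genes of the 50686 in the gene annotation of the libraries, in microglia of old and young male mice sorted for their lipid content after stroke. The genes were taken from a list of symbols, each found by the symbol that follows the Ensembl identifier in every library: 17 act in beta-oxidation, 13 in the TCA cycle and 3 at the entry of pyruvate. The libraries came from 4 young (3 to 4 months) and 3 old (21 to 22 months) C57BL/6 mice, each library from 1 mouse, 4 days after a 45 min occlusion of the middle cerebral artery. All were males without drug treatment, and in both ages cells were sorted by CD11b and CD45 and then as Bodipy+, Bodipy being a dye of the neutral lipids that droplets hold. No library from mice without ischemia or from Bodipy-negative cells was analysed here, and both ages share the ischemia and the gate. The RNA was copied to cDNA with a Smart-seq2 protocol for low input that does not record strand. Animal codes end in C in the young mice (14C, 18C, 23C, 29C) and in posI in the old mice (2posI, 3posI, 4posI), endings that the labels do not explain, and any handling that went with them cannot be told apart from age.

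Long-chain fatty acids enter the mitochondrial matrix as carnitine esters and are shortened there in repeated rounds of oxidation, hydration, oxidation and thiolysis. Each round releases acetyl-CoA, which the TCA cycle oxidizes further, and hands electrons to the respiratory chain through NADH and the electron transfer flavoprotein. Lipid droplets hold the triglycerides from which such fatty acids can be drawn, and pyruvate from glycolysis is the other main source of acetyl-CoA.

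Expected counts, the read counts per gene that RSEM estimates, summed to 36574083 to 53002386 per library. Levels are given as CPM, counts scaled to library size by TMM factors, which compare 1 gene between libraries, and as TPM, transcript shares that are set per length and are used wherever genes are compared with each other. Nuclear ribosomal RNA genes took 3.52% to 4.24% of the counts in young and 1.62% to 2.84% in old mice. Of 10 microglial markers, all were detected, and they summed to 27262 to 37258 CPM in young and 15454 to 31299 CPM in old mice. By mean CPM 2 of the 10 were higher in old mice, and none passed the threshold. Fcrls was below in every old library (3903 ± 354 CPM in young and 2385 ± 778 CPM in old mice). The homeostatic marker P2ry12 was lowest in young mouse 23C (441 CPM) and old mouse 3posI (341 CPM), against 1123 to 1767 CPM in the other libraries. The 6 monocyte markers summed to 2769 CPM in 3posI and to 181 to 480 CPM elsewhere, most of the latter from Fn1 (110.1 to 405 CPM). All 6 had fold changes above 1 in old mice, none past the threshold. Ly6c2 (0.946 to 2.86 CPM in young and 15.3, 162 and 9.59 CPM in old mice) and Plac8 (0.922 to 4.56 CPM, and 6.91, 86.2 and 11.7 CPM) were above in every old library. The sums of border-associated macrophage (108 to 677 CPM), neutrophil (1.26 to 141 CPM), B lineage (11.4 to 29.8 CPM) and pericyte markers (3.29 to 18.4 CPM) overlapped between ages. So did those of astrocyte (17.6 to 119 CPM), oligodendrocyte (122 to 167 CPM) and neuronal markers (1.74 to 4.08 CPM). T and NK cell markers summed to 0.0645 to 0.392 CPM in young and 0.328 to 3.00 CPM in old mice. Of the genes in these lists Trac, Nkg7 and the neuronal Nefl were above in every old library, with old means of 0.520, 0.609 and 0.223 CPM. Of the 6 T and NK cell markers 5 were under 1 CPM in every library. The 6 endothelial markers summed to less in every old library (49.2 to 62.3 CPM) than in any young one (64.6 to 124 CPM). Among them Slco1a4 was the only marker of any list past the threshold. It was 8.48 ± 1.71 CPM in young and 2.69 ± 0.179 CPM in old mice (log2 fold change -1.66, edgeR adjusted p = 0.0280). Pecam1 and Ly6c1 were also below in every old library, and Cldn5, Flt1 and Cdh5 overlapped between ages. What part these differences have in the values below was not tested, and in sorted bulk samples fewer cells of a kind and less RNA per cell cannot be told apart.

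None of the 33 genes passed the threshold between ages (edgeR's quasi-likelihood test, adjusted p under 0.05), where 141 of 17559 autosomal genes tested did (0.803%, 0.57% higher and 0.233% lower in old mice). Idh3g and Pdha1 lie on X and were read from a fit that kept chromosomes X, Y and M, in which 0.754% of 18173 genes passed. With DESeq2 and limma-voom none of the set passed either, against 7.97% and 0.814% of all genes. With limma-voom and sample weights none of its 31 autosomal genes passed, against 1.81% of all genes. At an unadjusted p under 0.05 there were 5 genes of 33 (15.2%): Hadha, Eci1, Suclg1, Mdh2 and Pcx. Over all genes that share was 18.9%. In 4 of 33 (12.1%) the CPM of the ages did not overlap, with Eci1, Suclg1 and Mdh2 above and Suclg2 below in every old library, and 17.7% of all genes did so (8.67% above, 9.07% below). In TPM the ages were apart in 7 genes, with Eci1, Suclg1, Mdh2 and Pdhb above and Hadha, Idh3b and Suclg2 below in old mice (21.2%), against 17.5% of all genes (6.26% above, 11.2% below). The shares of the set at an unadjusted p under 0.05 and without overlap in CPM were no larger than those of all genes, and the share without overlap in TPM was near that of all genes.

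Most genes of the set were close between ages. The log2 fold change (old minus young) had a median of 0.04 over the 33 genes and -0.01 over all genes tested, with 20 of 33 higher in old mice, where 48.8% of all genes were higher. On the TPM scale, log2(TPM + 1), 12 of the 31 autosomal members were higher instead, and there the median of all genes was -0.07. For 31 of 33 genes the 95% interval of the fold change lay within 2-fold either way, and for 19 within 1.5-fold. Cpt1a (-1.17 to 0.61) and Pcx (-1.62 to -0.06) had the intervals that reached further. The spread between mice of 1 age was a median SD of 0.208 in log2 CPM for the set and 0.389 over all genes. The filter admitted genes with few counts, so all genes were not of like expression to the set, and no spread was taken over genes that were.

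**Figure D1:**
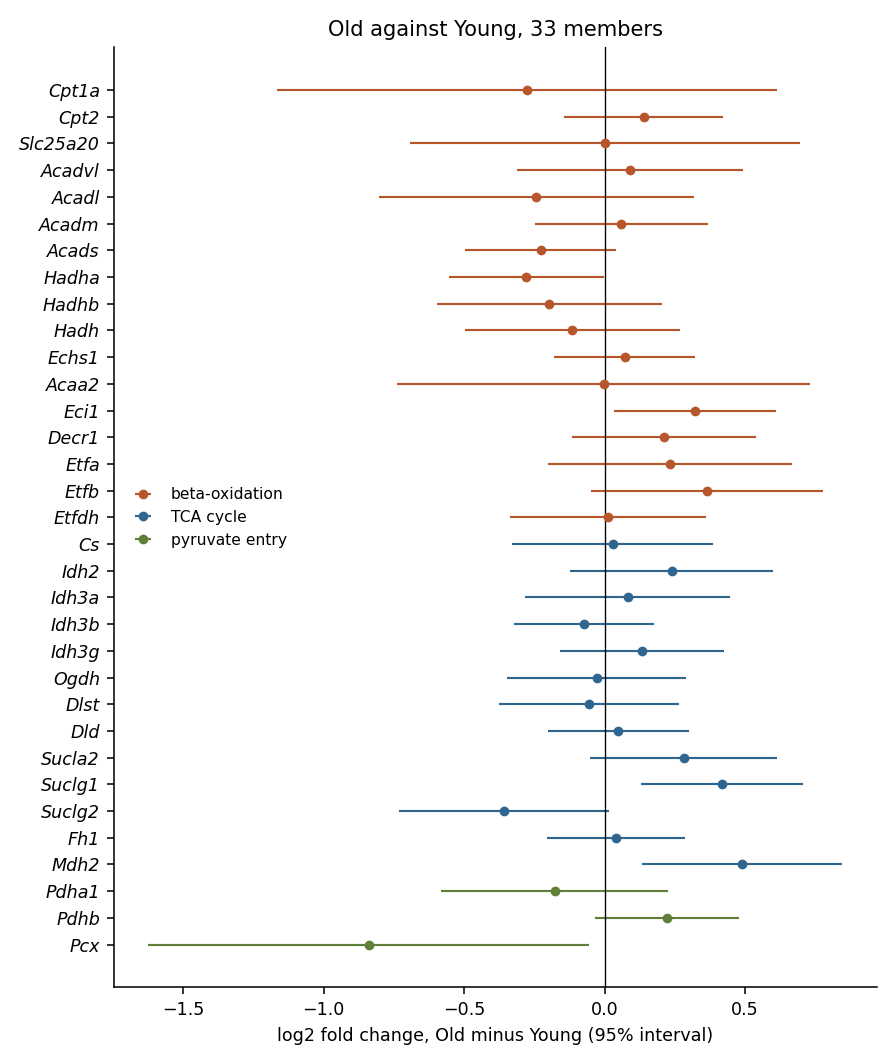
Log2 fold change between old (3) and young (4) mice for the 33 genes, in the order of the pathway. Points are edgeR estimates, lines are 95% intervals, and colours mark beta-oxidation, TCA cycle and pyruvate entry. The intervals of Eci1, Suclg1 and Mdh2 lie above 0 and those of Hadha and Pcx below it before adjustment, and that of Cpt1a, from -1.17 to 0.61, is the widest among the genes of beta-oxidation.

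Cpt1a and Slc25a20 of the carnitine shuttle differed more between mice of 1 age than between ages. Cpt1a (chr19:3322334-3385733 on GRCm38, placed like all genes here by GENCODE vM21) encodes the carnitine palmitoyltransferase of the outer membrane, the step that commits long-chain fatty acids to oxidation. It stood at 72.1, 51.6, 135 and 66.7 CPM in young mice 14C, 18C, 23C and 29C, an order kept for all values below, and at 56.9, 104 and 40.0 CPM in old mice 2posI, 3posI and 4posI. The highest library of each age was 23C and 3posI, and the ages overlapped over most of their range. Old minus young came to -0.28 on the log2 scale (SE 0.39, edgeR adjusted p = 0.744). Without 3posI it was -0.75 and without 23C it was 0.08. Slc25a20, the translocase that exchanges acylcarnitine for carnitine across the inner membrane, went from 21.6 to 42.5 CPM in young and from 19.9 to 46.2 CPM in old mice, again with 23C and 3posI highest. Cpt2, which restores the acyl-CoA on the matrix side, was nearly flat at 17.2 ± 0.497 CPM (SD, n = 4) and 19.0 ± 1.84 CPM (SD, n = 3).

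Sequence before the RefSeq start site is shown for Cpt1a, Slc25a20 and Acadl, which shared 1 order of the libraries (below). The sequences are from the RefSeq promoter table on GRCm38.p6, 5′ to 3′ on the strand of the gene, and stop at the RefSeq start site or before an exon that GENCODE vM21 places nearer. The Cpt1a stretch ends before the first exon of transcript Cpt1a-201, and lies in an intron of Cpt1a-206, which starts further upstream. They lie at chr19:3323051-3323284 (+) for Cpt1a, chr9:108661886-108662087 (+) for Slc25a20 and chr1:66863310-66863559 (-) for Acadl. Capitals mark, on either strand, GGGCGG (the GC box), AGGTCA (the half-site of nuclear receptors such as the PPARs), CCGGAAG (an ETS site) and CCAAT.
Cpt1a: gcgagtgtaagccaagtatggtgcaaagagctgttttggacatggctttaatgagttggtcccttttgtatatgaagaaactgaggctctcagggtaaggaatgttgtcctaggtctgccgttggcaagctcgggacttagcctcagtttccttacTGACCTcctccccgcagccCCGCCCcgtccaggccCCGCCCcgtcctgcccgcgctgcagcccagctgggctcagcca
Slc25a20: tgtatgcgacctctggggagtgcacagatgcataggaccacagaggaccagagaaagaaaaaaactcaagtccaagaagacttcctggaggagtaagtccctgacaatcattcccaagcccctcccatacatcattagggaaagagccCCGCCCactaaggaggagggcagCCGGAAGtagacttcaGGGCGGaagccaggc
Acadl: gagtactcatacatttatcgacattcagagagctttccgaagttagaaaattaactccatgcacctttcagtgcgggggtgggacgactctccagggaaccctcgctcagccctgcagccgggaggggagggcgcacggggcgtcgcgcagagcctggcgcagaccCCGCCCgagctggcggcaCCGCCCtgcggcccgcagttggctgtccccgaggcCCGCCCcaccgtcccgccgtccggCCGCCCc
The Cpt1a stretch holds 1 half-site and 2 GC boxes, that of Slc25a20 1 ETS site and 2 GC boxes, and that of Acadl 4 GC boxes.

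Windows from 250 bases before to 50 after the start site were matched for 30 of the 33 genes and for 27025 genes in all. The GC box was in 22 windows of the set (73.3%) and in 38.2% of all windows, the half-site in 9 (30.0%) and in 18.1%, and the ETS site in 5 (16.7%) and in 9.93%. CCAAT was in 14 (46.7%) and in 41.1%. The estrogen-related receptor element TCAAGGTCA, which holds the half-site, was in 0 of 30 windows and in 0.466% of all, and the direct repeat of the half-site bound by PPAR and RXR in 0 of 30 and in 0.0481%. These are matches of letters in short windows, on both strands, and not bound sites. The 27025 windows were not limited to genes tested here, so the set was not compared with genes of like expression.

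The acyl-CoA dehydrogenases, which open each round and differ in the chain length they accept, showed no difference that passed. Acadvl (chr11:70010183-70015411), for very long chains, stood at 78.0, 66.0, 95.1 and 85.0 CPM in young and 94.8, 97.9 and 66.3 CPM in old mice, a log2 fold change of 0.09 (SE 0.18). Its counts were fractional in all 7 libraries and it overlaps Dvl2 on the other strand, so part of its reads may be split between genes. Acadm (chr3:153922357-153944632), for medium chains, was the steadiest of them in young mice at 63.2, 64.9, 60.7 and 61.7 CPM, and had 78.2, 63.1 and 54.6 CPM in old mice. The young values thus lay inside the range of the old ones, with a log2 fold change of 0.06 (SE 0.14). Acads, for short chains, was 65.7 ± 6.82 CPM in young and 56.1 ± 2.75 CPM in old mice (log2 fold change -0.23, SE 0.12, edgeR adjusted p = 0.337). Acadl, for long chains, had the largest span of the 4, 74.0 to 153 CPM in young and 70.9 to 106 CPM in old mice.

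Hadha and Hadhb encode the subunits of the trifunctional protein, which carries out the later steps of long-chain oxidation. Their RefSeq start sites lie 272 bases apart on chromosome 5 and point away from each other (30154980, minus strand, and 30155253, plus strand). GENCODE vM21 puts the starts nearer to each other, at 30155162 and 30155248. Hadha (chr5:30118304-30155162) was at 155, 139, 168 and 154 CPM in young and 139, 125 and 117 CPM in old mice. Old mouse 2posI met the lowest young mouse, 18C, and in TPM every old library was below every young one (110 ± 5.90 and 91.0 ± 5.85 TPM). The difference was -0.28 on the log2 scale (SE 0.12), with an adjusted p of 0.263 (edgeR), and it stayed between -0.35 and -0.22 when any 1 library was left out. Hadhb was at 114, 95.6, 133 and 115 CPM in young and 126, 88.7 and 84.4 CPM in old mice, and the ages overlapped. The ratio of Hadha to Hadhb in TPM, taken after the values were seen, spanned 1.15 to 1.34 in young libraries and 1.15 to 1.44 in old ones. Hadha overlaps Garem2 on the other strand, and the Hadhb counts were fractional in all 7 libraries.

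The soluble enzymes of the same steps had log2 fold changes of -0.11 to 0.07. Hadh, the dehydrogenase for shorter chains, was 41.6 ± 8.60 and 38.4 ± 3.40 CPM in young and old mice. Echs1, the short-chain hydratase, was 89.2 ± 4.69 and 93.7 ± 8.35 CPM. Acaa2, the thiolase that releases acetyl-CoA, was 64.5 ± 19.3 and 64.3 ± 26.9 CPM, a log2 fold change of 0.00 (SE 0.32) with a span of 40.8 to 88.0 CPM in young and 37.3 to 91.1 CPM in old mice.

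The auxiliary genes had log2 fold changes of 0.21 and 0.32 and the electron transfer genes of 0.01 to 0.36, none past the threshold. Eci1 (chr17:24426641-24439348), the isomerase that moves double bonds of unsaturated fatty acids into place, was at 17.9, 19.2, 21.4 and 21.0 CPM in young and 27.0, 24.7 and 22.8 CPM in old mice. Every old library was above every young one in CPM and in TPM. Its difference was 0.32 on the log2 scale (SE 0.13, edgeR adjusted p = 0.220), and its counts were fractional in all 7 libraries. Decr1, the dienoyl-CoA reductase for the same fatty acids, was 20.8 ± 2.95 and 24.1 ± 1.46 CPM. Among the genes of the electron transfer flavoprotein and its dehydrogenase, Etfb (87.6 ± 12.6 and 113 ± 25.1 CPM, log2 fold change 0.36, SE 0.18) had the largest log2 fold change of the beta-oxidation genes, Etfa was 66.3 ± 9.41 and 77.9 ± 19.0 CPM, and Etfdh was 44.4 ± 5.59 and 44.8 ± 6.96 CPM. In TPM Etfdh was lower in old mice, at 28.0 ± 3.24 and 25.5 ± 2.19, and the ages overlapped.

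**Figure D2:**
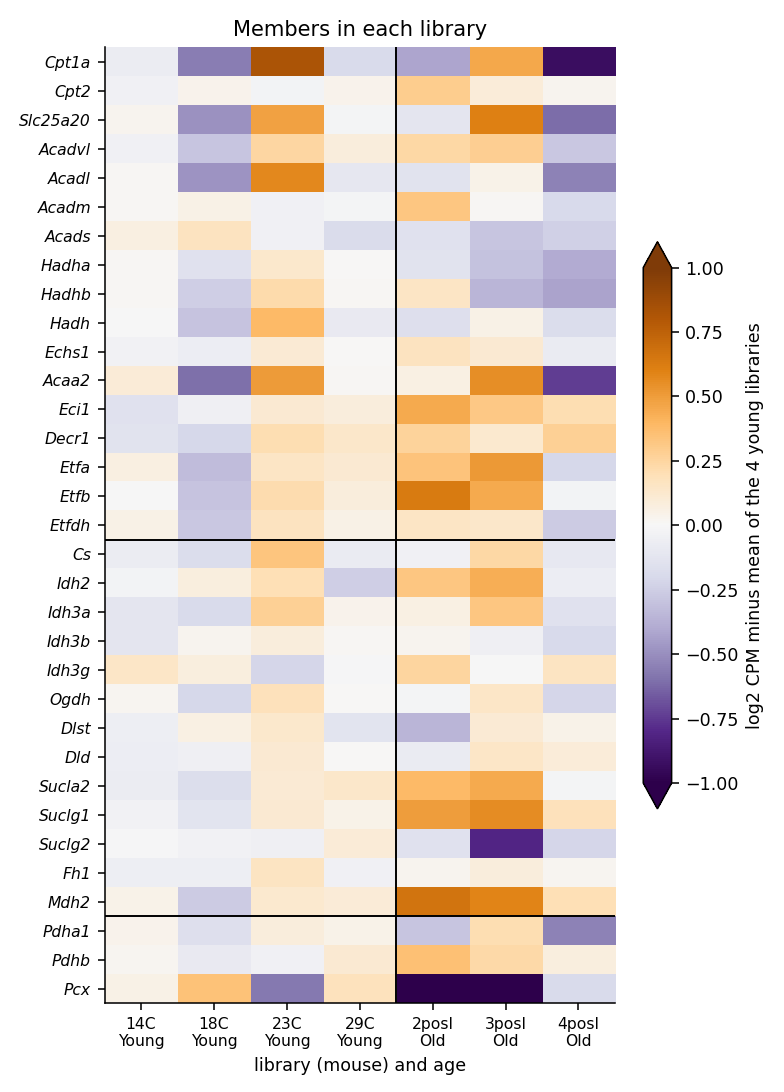
Each of the 33 genes (rows) in each of the 7 libraries (columns), as log2 CPM minus the mean of the 4 young libraries, with the colour scale ending at 1 either way. Horizontal lines separate beta-oxidation, TCA cycle and pyruvate entry, and the vertical line the ages. The columns of 23C (highest of the young libraries in 25 of 33 genes) and 4posI (lowest of the old ones in 26 of 33) run through the whole set, while Suclg1 and Mdh2 are higher and Suclg2 lower across all old columns.

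In the TCA cycle the genes furthest from 0 were those of succinyl-CoA synthetase and malate dehydrogenase. Succinyl-CoA synthetase joins the alpha subunit, Suclg1, to a beta subunit that sets the nucleotide made, Sucla2 for ATP and Suclg2 for GTP. Suclg1 (chr6:73248382-73276911) was at 46.8, 43.8, 51.7 and 49.3 CPM in young and 67.6, 70.3 and 54.2 CPM in old mice. Each old library was above each young one. The log2 fold change of 0.42 had an SE of 0.13, and its adjusted p of 0.141 (edgeR) was the smallest of the set. Its log2 fold change lay between 0.35 and 0.52 when any 1 library was left out. Suclg2 (chr6:95473009-95718800) went the other way, at 60.7, 60.0, 59.2 and 65.6 CPM in young and 55.5, 35.1 and 53.0 CPM in old mice. All old libraries were below all young ones, 3posI by the most, and the difference of -0.36 on the log2 scale (SE 0.16, edgeR adjusted p = 0.281) was -0.18 without 3posI. Sucla2 was 48.1 ± 4.85 and 58.5 ± 9.78 CPM (log2 fold change 0.28, SE 0.15, edgeR adjusted p = 0.336).

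Ratios between these subunits were taken after the values were seen and are given as a description. In TPM, Suclg1 over Suclg2 was 1.33, 1.31, 1.55 and 1.29 in young and 2.11, 3.40 and 1.79 in old mice. Sucla2 over Suclg2 stayed from 0.922 to 1.116 in young and from 1.16 to 2.36 in old libraries. Both ratios were higher in every old library, and both were highest in 3posI, the library with the most monocyte markers.

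Mdh2 (chr5:135778480-135790398), which turns malate into oxaloacetate, was the most abundant transcript of the set at 207 ± 18.6 TPM in young and 262 ± 26.2 TPM in old mice. In CPM it was 192, 156, 203 and 199.5 in young and 295, 281 and 215 in old mice. Old mouse 4posI lay just above the highest young mouse, and the other old mice well above it. The difference was 0.49 on the log2 scale (SE 0.16, edgeR adjusted p = 0.158), the largest value above 0 in the set, and it lay between 0.40 and 0.61 when any 1 library was left out. Fh1, the fumarase before it, was 41.2 ± 3.24 and 42.3 ± 0.936 CPM. Cs (chr10:128337734-128362479), the citrate synthase that takes in acetyl-CoA, was at 108, 101, 143 and 107 CPM in young and 111, 135 and 106 CPM in old mice, and its ages overlapped. Its log2 fold change was 0.03 (SE 0.16). Mdh2 over Cs in TPM, also chosen after the values were seen, spanned 3.17 to 4.29 in young libraries and 4.41 to 5.90 in old ones.

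The isocitrate and 2-oxoglutarate steps, where the cycle releases carbon dioxide, had log2 fold changes of -0.07 to 0.24. Idh3a (chr9:54586334-54604661), the catalytic subunit of the NAD-dependent isocitrate dehydrogenase, was at 39.2, 37.5, 51.9 and 43.8 CPM in young and 44.5, 53.6 and 38.7 CPM in old mice, a log2 fold change of 0.08 (SE 0.16). Its partners Idh3b and Idh3g had log2 fold changes of -0.07 (SE 0.11) and 0.13 (SE 0.13). Idh3b overlaps Nop56 on the other strand. The NADP-dependent Idh2 was 92.6 ± 11.96 and 109 ± 19.0 CPM. The subunits of 2-oxoglutarate dehydrogenase, Ogdh (186 ± 20.2 and 183 ± 22.6 CPM), Dlst (53.9 ± 4.28 and 51.8 ± 8.62 CPM) and Dld (50.9 ± 3.01 and 52.7 ± 4.22 CPM), had log2 fold changes of -0.06 to 0.05, each with an interval within 1.5-fold. By their annotated spans Echs1 (with Paox), Fh1 (with Kmo) and Pdha1 (with Map3k15) also overlap a gene on the other strand, and strand was not recorded. The expected counts were whole in all 7 libraries for Idh3b and Fh1, in 2 for Echs1 and in 1 for Pdha1. Reads of Echs1 and Pdha1 may thus be split with other genes in part.

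Pyruvate enters the mitochondrial pathways through pyruvate dehydrogenase, which makes acetyl-CoA, or pyruvate carboxylase, which makes oxaloacetate. Pdha1 (chrX:160122209-160138413), the catalytic alpha subunit of the dehydrogenase, was at 65.0, 56.4, 67.1 and 65.0 CPM in young and 51.8, 73.1 and 43.3 CPM in old mice. Old mice 2posI and 4posI were below every young one and 3posI was above them all, and the log2 fold change was -0.18 (SE 0.18). Pdhb, the beta subunit, was 71.0 ± 4.28 and 82.8 ± 7.89 CPM (log2 fold change 0.22, SE 0.11, edgeR adjusted p = 0.329), with counts that were fractional in all 7 libraries. Pcx (chr19:4510472-4621752), the carboxylase, was the least abundant transcript of the set, at 2.96 ± 0.752 TPM in young and 1.59 ± 0.890 TPM in old mice. Its CPM were 8.83, 10.8, 5.73 and 9.59 in young and 4.20, 2.96 and 7.45 in old mice, so 4posI lay above young mouse 23C. The difference was -0.84 on the log2 scale (SE 0.34, edgeR adjusted p = 0.236), the largest of the set in size, and ranged from -1.29 without 4posI to -0.58 without 3posI. It rested on 116 to 483 expected counts per library. The span of Pcx overlaps Lrfn4 on the other strand, but the Pcx counts were whole in all 7 libraries.

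**Figure D3:**
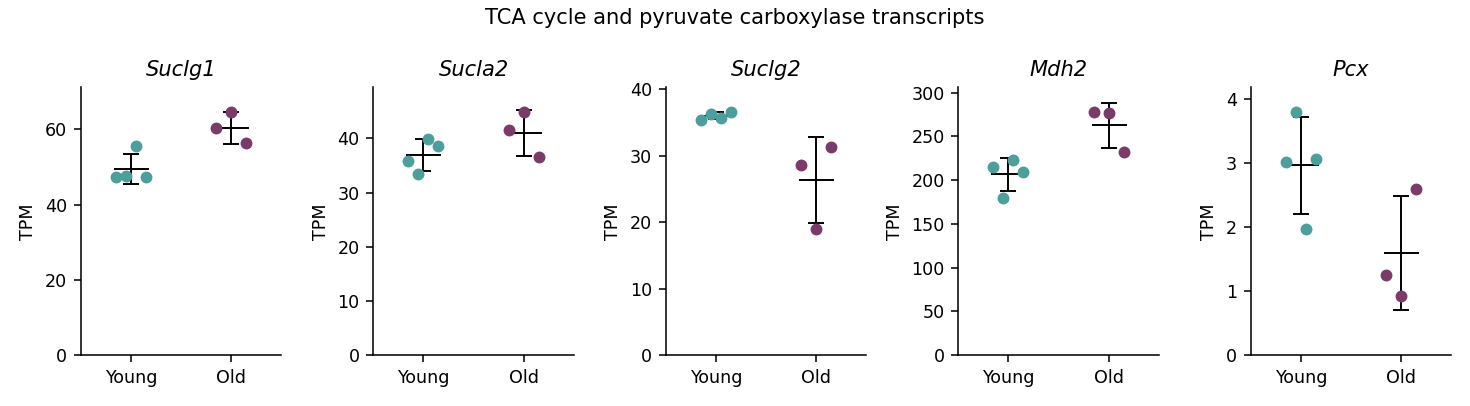
TPM of Suclg1, Sucla2, Suclg2, Mdh2 and Pcx in each library, young (4) and old (3), with the mean and SD as black lines and each axis from 0. Old points of Suclg1 and Mdh2 all lie above the young ones and those of Suclg2 all below, with 3posI lowest at 19.0 TPM, while the ages overlap in Sucla2 and Pcx.

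Beta-oxidation and TCA cycle genes were then set side by side. In beta-oxidation 10 of 17 genes were higher in old mice, with a median log2 fold change of 0.01 and a range of -0.28 to 0.36. In the TCA cycle 9 of 13 were higher, with a median of 0.05 and a range of -0.36 to 0.49. Of the 3 genes of pyruvate entry 1 was higher, and their median was -0.18. For the 16 genes of TCA cycle and pyruvate entry together the median was 0.04, and for all genes tested -0.01. On log2(TPM + 1) the median was -0.13 for beta-oxidation, -0.02 for the 14 autosomal genes of TCA cycle and pyruvate entry and -0.07 for all genes tested. The sign of both medians thus depended on the scale. That of TCA cycle and pyruvate entry was above the all-gene median on both scales, and that of beta-oxidation was above it in CPM and below it in TPM. The beta-oxidation transcripts summed to 963, 845, 1153 and 916 TPM in young and 963, 982 and 821 TPM in old mice, and those of the TCA cycle to 894, 858, 962 and 848 TPM in young and 923, 955 and 920.2 TPM in old mice. The TCA cycle sum over the beta-oxidation sum was 0.928, 1.02, 0.834 and 0.926 in young and 0.958, 0.973 and 1.120 in old mice. The ages overlapped in each of the sums and in their ratio. Over the 3 roles together the set took 1965 ± 182 TPM (SD, n = 4) in young and 1958 ± 105 TPM (SD, n = 3) in old mice.

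Levels within the set, compared in TPM, spread widely. After Mdh2 came Etfb (154 ± 23.2 TPM in young and 188 ± 25.6 TPM in old mice), Idh3g (127 ± 15.7 and 133 ± 15.95 TPM) and Hadha (110 ± 5.90 and 91.0 ± 5.85 TPM). Etfb and Idh3g overlapped in young mice and not in old ones. At the other end stood Cpt2 (12.5 ± 0.558 and 12.7 ± 1.497 TPM) and Decr1 (10.8 ± 1.30 and 11.7 ± 1.21 TPM), within their spread of each other, and then Pcx.

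Differences between mice of the same age ran through much of the set. Among young mice 23C was highest in 25 of 33 genes and 18C lowest in 21, and among old mice 4posI was lowest in 26. Over all genes tested 23C was highest of the young libraries in 30.5%, 18C lowest in 28.1% and 4posI lowest of the old ones in 29.6%. By beta-oxidation alone, 23C was highest in 14 of 17 genes, 18C lowest in 13 and 4posI lowest in 15. Of the 33 genes 5 (15.2%) spanned at least 2-fold over the 7 libraries, namely Pcx (3.65-fold), Cpt1a (3.36-fold), Acaa2 (2.44-fold), Slc25a20 (2.32-fold) and Acadl (2.16-fold). Of the 8146 genes with a mean of at least 10 CPM, 27.4% did.

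The order of the libraries in Cpt1a, which was 23C, 14C, 29C and 18C from high to low in young and 3posI, 2posI and 4posI in old mice, was met in 7 of the 33 genes (21.2%, Cpt1a included). These were Cpt1a, Slc25a20, Acadl, Hadh and Acaa2 of beta-oxidation and Cs and Ogdh of the TCA cycle. The same order was found in 305 of the 8146 genes (3.74%), and in 147 of the 2235 (6.58%) that spanned at least 2-fold. This comparison was chosen after the values were seen, and genes are not independent of each other. The libraries at the top of that order, 23C and 3posI, were those with the lowest P2ry12, and the part of this in the order was not tested.

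**Figure D4:**
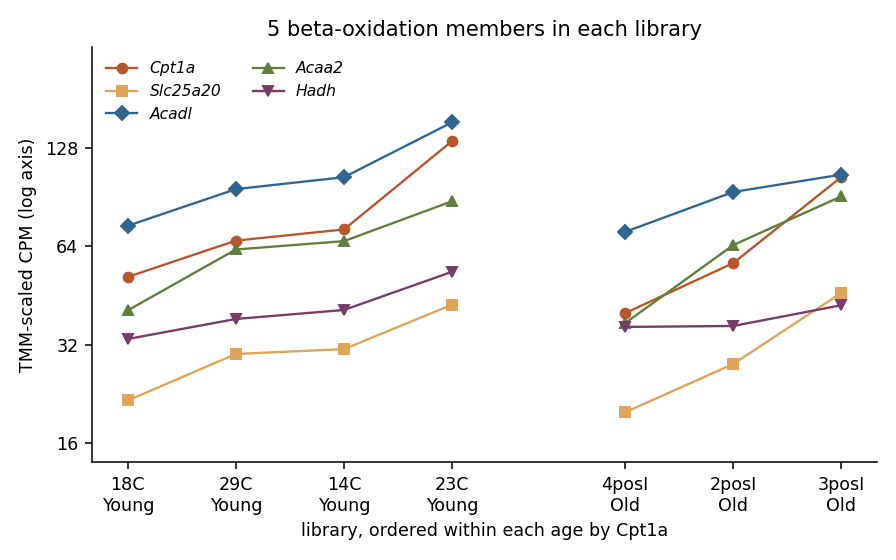
CPM of Cpt1a, Slc25a20, Acadl, Acaa2 and Hadh in each library, on a log axis of base 2, with libraries placed by rising Cpt1a within young (left) and old (right) mice. All 5 genes follow the same order in both ages, Cpt1a from 51.6 to 135 CPM in young and from 40.0 to 104 CPM in old mice.

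Gene length moved with the fold changes of the set. Effective length, in bases, and log2 fold change had a Spearman rho of -0.56 across the 33 genes, -0.07 across all genes tested and -0.19 across the 8146 genes at 10 CPM or more, given as a description because genes share libraries and length composition. Of the 11 genes under 1500 bases 9 were higher in old mice (median 0.22), and of the 22 longer ones 11 (median -0.01). Across the 8146 genes 1692 of 2220 under 1500 bases were higher (median 0.18) and 2653 of 5926 longer ones (median -0.04). The cutoff was chosen after the values were seen. With the trend of gene length removed over all genes, rho over the 31 autosomal genes was -0.35, and with the effective length as an offset it was -0.55. With the trend removed the log2 fold changes were 0.44 for Mdh2, 0.39 for Suclg1, 0.23 for Eci1, 0.25 for Etfb, -0.24 for Suclg2 and -0.21 for Hadha.

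**Figure D5:**
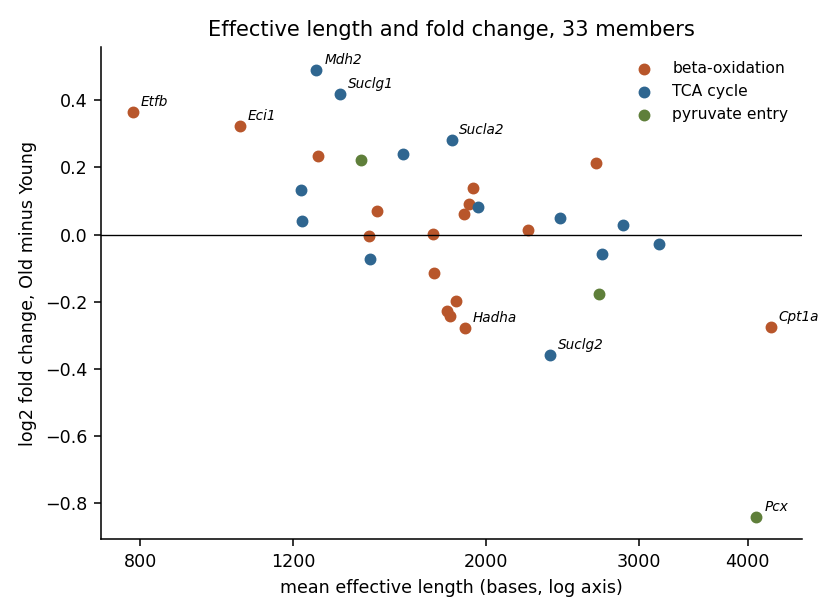
Log2 fold change between old and young mice against the mean effective length (bases, log axis) of the 33 genes, coloured by role. Genes beyond 0.25 either way are named. Of the 11 genes under 1500 bases 9 lie above 0, and of the 22 longer ones 11 do.

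Other genes of these pathways, from 6 lists, gave 1 call among the 70 tested of 72 listed (1.43%, against 0.803% of all autosomal genes and 0.754% with X, Y and M kept). Mlycd, the malonyl-CoA decarboxylase that removes the inhibitor of Cpt1a, fell from 29.1 ± 2.66 CPM (SD, n = 4) to 14.99 ± 1.52 CPM (SD, n = 3). Its values were 29.2, 32.4, 28.8 and 25.9 CPM in young and 16.7, 13.9 and 14.4 CPM in old mice, all old below all young. The difference was -0.96 on the log2 scale (SE 0.14, edgeR adjusted p = 0.0280). Left without 1 library at a time it stayed between -1.04 and -0.90, but the adjusted p (edgeR) was 0.0425 without 3posI and 0.0585 to 0.121 without any other, and it was 0.0616 with the trend of GC content removed. Acaca, the carboxylase that makes malonyl-CoA, was 9.81 ± 1.45 and 14.7 ± 1.80 CPM (log2 fold change 0.58, SE 0.17, edgeR adjusted p = 0.132), above in every old library in CPM. In TPM Acaca was 2.48 ± 0.686 and 2.52 ± 0.706, and the ages overlapped.

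In these lists 33 of 70 genes were higher and 37 lower in old mice, with a median log2 fold change of -0.02. By list, 6 of 17 other beta-oxidation enzymes, 5 of 9 other TCA cycle and pyruvate dehydrogenase subunits, 4 of 9 pyruvate carriers, kinases and phosphatases, 9 of 14 genes of anaplerosis and export, 4 of 8 of propionate and ketone bodies, and 5 of 13 regulators were higher. By smallest p in either direction, and beside Acaca and Mlycd, the lists gave Hsd17b10 (log2 fold change 0.41) and Acad10 (-0.61), Sdhb (0.33) and Dhtkd1 (-0.84), Mpc2 (0.33) and Pdk4 (-3.56), Mdh1 (0.29) and Aco1 (-0.26), and Oxct1 (0.28). Their adjusted p lay between 0.132 and 0.468 (edgeR). Hsd17b10 lies on X and was read from the fit that kept X, Y and M. Pdk4, a kinase that shuts pyruvate dehydrogenase, was low in young mice, at 2.42, 0.492, 5.45 and 0.731 CPM. In old mice it was near the detection limit, at 0.119, 0.460 and 0 CPM. All old libraries were below all young ones in CPM and in TPM, but the values near 0 leave its fold change poorly fixed. Mdh1, the cytosolic partner of Mdh2, was 137 ± 13.6 and 167 ± 4.33 CPM, above in every old library (adjusted p = 0.238, edgeR).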

How the data were processed

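RNA sequencing was done on Bodipy+ microglia of 7 mice. The authors checked reads with FastQC 0.11.5, trimmed them with skewer, mapped them with STAR to GRCm38 and ran RSEM on GENCODE m15 (no STAR or RSEM version is named by the labels or the methods read here). The deposited expected counts are estimated counts without normalization, and the deposited TPM values are scaled by RSEM for length and depth within each library. FPKM columns, also deposited by the authors from RSEM, were not used.

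Expected counts were rounded. Following the study's filter, a gene was kept if its expected count exceeded 10 in any library and it was autosomal. Idh3g and Pdha1 of the set, and Hsd17b10, Acot9 and Pdk3 of the other pathway genes, lie on X. These were read from a fit with X, Y and M. The test was edgeR's quasi-likelihood test (edgeR 4.0.16 in R 4.3.3, TMM factors, age as the only term), with Benjamini-Hochberg adjustment over all genes tested and a threshold of 0.05. The study's own tool, limma-voom, was an alternative (limma 3.58.1), as was DESeq2 1.42.0. Other alternatives were RLE and upper-quartile factors, an offset for effective length, removal of length or GC trends (lowess, span 0.3), other filters, log2(TPM + 1), log2(TPM + 0.1), and each library left out in turn. Leaving out 23C and 3posI together was chosen after seeing the data. Replicates are separate mice. Totals of 36574083 to 53002386 expected counts per library set the precision.

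A count is called fractional where it is not within 0.001 of a whole number. Genes were placed with GENCODE vM21, which lacked 224 of the 50686 identifiers. The genes and lists were chosen with earlier results of these data known. Values in every library were given for genes with an adjusted or unadjusted p under 0.05 or with ages that did not overlap in CPM, and for Cpt1a, Acadvl, Acadm, Hadha, Cs, Idh3a, Pdha1 and Pcx whatever their values. Of the other pathway genes, those past the threshold and the smallest p in each direction of each list were named, except for an item that is not reported here. Slc25a20, Acadl, Acaa2, Hadhb and Hadh were detailed after their values were seen. The fits were checked on simulated counts.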

Additional observations from a re-analysis of the deposited data

Results flagged for a closer look

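Among the 4 young mice, 3 of 45 genes examined had 1 library far from the other 3, where chance gives about 1 in 20 groups, or 2.25 of 45. The gap to the nearest library, as a share of the whole range, was 0.932 in Fh1, where 23C had 46.0 CPM and the others 39.4 to 39.9 CPM. It was 0.910 in Aco1, the cytosolic aconitase, where 23C had 47.8 CPM and the others 41.0 to 41.6 CPM. It was 0.858 in Hsd17b10, a mitochondrial dehydrogenase of branched-chain and fatty acid oxidation, where 18C had 30.6 CPM and the others 35.6 to 36.4 CPM. The 3 old mice are too few for this comparison.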

How the results depend on the processing

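Under the 21 alternatives none of the 33 genes passed the threshold where it was tested. Of the 33 genes 19 kept the sign of their fold change in each alternative that gave one (21, or 11 for the X-linked Idh3g and Pdha1). The smallest adjusted p over the alternatives was 0.0565 for Mdh2 and 0.0587 for Suclg1. Over all genes tested 141 passed, 318 with limma-voom and sample weights, 1399 with DESeq2, 213 with the effective length as an offset, 288 without the filter, 64 on log2(TPM + 1) and 71 on log2(TPM + 0.1). Leaving out 1 library gave 1 to 159 (1 without 14C, 18C or 2posI, 2 without 29C, 14 without 23C, 85 without 4posI and 159 without 3posI), and 170 passed without both 23C and 3posI. Of the set 20 were higher in old mice, 12 of 31 on either TPM scale, and 15 (without 3posI) to 24 (without 23C) with 1 library left out. The median log2 fold change of TCA cycle and pyruvate entry genes was 0.04. It was 0.16 with the trend of gene length removed, -0.023 on log2(TPM + 1) and -0.023 on log2(TPM + 0.1), where the median of all genes was -0.07 and -0.13, and between -0.024 (without 3posI) and 0.094 (without 23C) with 1 library left out. That of beta-oxidation, 0.01, was -0.13 on either TPM scale and -0.07 to 0.17 with 1 library left out. No paired analysis was possible because the labels give animal codes and no numbers shared between the ages. With 3 and 4 mice, changes under about 1.5-fold were often within the intervals, so that a missing call does not show equal levels.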
